A study of Arabidopsis thaliana with 8 samples.

Results

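RNA sequencing of *Arabidopsis* seedlings was used to describe 10 genes of the circadian clock, chosen by gene identifier from the 27207 genes of the deposited table. They are *CCA1* (AT2G46830), *LHY* (AT1G01060), *PRR9* (AT2G46790) and *PRR7* (AT5G02810), treated here as the 4 morning genes, and *PRR5* (AT5G24470), *TOC1* (AT5G61380), *GI* (AT1G22770), *ELF3* (AT2G25930), *ELF4* (AT2G40080) and *LUX* (AT3G46640), treated as the 6 evening genes. All 10 were detected in each of the 8 libraries and all passed the filter on low values, a mean of at least 1. The comparison was made between 4 groups of 2 libraries: *idd4* seedlings on 100 mM NaCl, *idd4* seedlings without NaCl (mock), wild-type (WT, Col-0) seedlings on 100 mM NaCl and WT mock seedlings. *idd4* is a line with a T-DNA insertion in *IDD4*, a zinc finger transcription factor of the INDETERMINATE DOMAIN family. All seedlings were 14 days old, and had been moved at 5 days to plates with or without NaCl. The study's growth conditions had 16 h of light and 8 h of dark, and the hour of harvest is not given in the sources used here. The study calls its RNA-seq replicates biological and describes 1 more per group than the 2 libraries analysed here. How plants were pooled in a library is not given in the sources used here, and p-values measure the spread between these libraries.

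The plant clock is a set of transcription factors that repress one another in turn over the day. CCA1 and LHY are related MYB factors that are most abundant around dawn and repress evening genes. The PSEUDO-RESPONSE REGULATORs follow in the order PRR9, PRR7, PRR5 and TOC1 and repress *CCA1* and *LHY* through the day. ELF3, ELF4 and LUX together form the evening complex, which represses *PRR9* and other day genes at night, and GIGANTEA (GI) stabilises the F-box protein ZEITLUPE, which targets TOC1 and PRR5 for degradation. The clock is known for timing photosynthesis, growth, flowering and stress responses, and GI has a known role in salt tolerance in *Arabidopsis*. Since these transcripts change through the day, a difference in harvest time and a difference due to treatment cannot be told apart here.

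From each library between 5882615 and 13557480 fragments were recovered, the fewest and the most being the 2 libraries of *idd4* under NaCl. Values are given as the authors' scaled fragment counts, that is fragments per gene multiplied by 1 factor per library, in which a single fragment is worth 0.776 to 1.79. *IDD4* itself was at 603 and 527 in libraries labelled *idd4* under NaCl, 477 and 436 in those of mock, 414 and 428 in WT under NaCl, and 274 and 360 in WT mock. The *IDD4* transcript was therefore higher in libraries labelled *idd4*, with no overlap in either treatment. The log2 difference was 0.42 under NaCl and 0.54 in mock, and neither reached an adjusted p under 0.05 (limma). Of all genes, 9.32% were higher without overlap under NaCl and 9.05% in mock. Libraries labelled *idd4* are called by that label throughout, and the direction of each genotype difference rests on it. Summed levels of 7 green shoot markers were 270725 to 478888 under NaCl and 589966 to 808351 in mock, and those of 7 root markers 1205 to 1713 under NaCl and 2371 to 3422 in mock. All 14 markers were detected in every library. In a mixture of cell types such as a seedling, fewer cells of a type and less RNA per cell cannot be told apart, and the part of either in the results was not tested. On the log2 scale the median gene was 0.25 higher with NaCl than without it, in *idd4* as in WT.

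The promoters of the 4 morning genes are shown for the hexamer they have in common, the G-box, which is bound by bZIP factors and by the phytochrome-interacting bHLH factors of light signalling. CACGTG occurred within 500 bases upstream of the annotated start of all 4 morning genes and of *LUX*, that is of 5 of the 10 genes, against 9.42% of 26548 *Arabidopsis* promoters of that length. The windows below are from the RefSeq copy of TAIR10.1, on the strand of the gene, with the G-box in capitals and 30 bases on either side. They lie at chr2:19245368-19245433 (plus strand) for *CCA1*, at chr1:37916-37981 (minus strand) for *LHY*, at chr2:19232333-19232398 (plus strand) and chr2:19232405-19232470 (plus strand) for *PRR9*, and at chr5:642196-642261 (minus strand) for *PRR7*.
CCA1: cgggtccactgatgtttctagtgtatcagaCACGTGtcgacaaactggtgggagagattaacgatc
LHY: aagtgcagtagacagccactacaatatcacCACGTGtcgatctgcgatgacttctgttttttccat
PRR9, first: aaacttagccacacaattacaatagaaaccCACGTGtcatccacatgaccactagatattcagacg
PRR9, second: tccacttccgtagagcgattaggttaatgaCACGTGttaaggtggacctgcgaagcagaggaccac
PRR7: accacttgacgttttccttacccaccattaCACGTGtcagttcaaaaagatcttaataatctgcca
The G-box starts 193 bases upstream of the *CCA1* start, 80 upstream of *LHY*, 244 and 172 upstream of *PRR9* and 201 upstream of *PRR7*. In 4 of the 5 windows it is followed by tc, and the octamer CACGTGTC, read on either strand, was found in the promoters of all 4 morning genes and none of the 6 evening genes, against 2.81% of all promoters. Of the 46 other clock genes described below, 5 held the octamer and 8 the G-box. The 5 were *RVE1*, *RVE2*, *LNK3*, *TIC* and *BOA*, the last from the list of partners of the evening genes. The octamer contains the G-box and was chosen after the windows had been read. A match is a description of the letters and not of a site in use.

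In both genotypes, the NaCl libraries exceeded the mock libraries for *CCA1*, *LHY* and *PRR9* with no overlap, whereas they overlapped for *PRR7*. Non-overlapping groups were common: of the 10 genes, 6 did not overlap in *idd4* (3 higher and 3 lower), against 52.8% of all genes (40.2% higher and 12.6% lower), and 7 in WT (4 higher and 3 lower), against 54.4% (42.5% higher and 11.9% lower). *CCA1*, the dawn MYB factor, was at 135 and 171 in libraries labelled *idd4* under NaCl against 46.1 and 58.4 in those of mock, and at 228 and 231 in WT under NaCl against 19.3 and 30.8 in WT mock. Its order was thus WT under NaCl, *idd4* under NaCl, *idd4* mock and WT mock, with none of these groups overlapping its neighbour. *CCA1* rose by 1.53 ± 0.31 (log2 difference ± SE) in libraries labelled *idd4* (adjusted p = 0.0366, limma) and by 3.18 ± 0.31 in WT (adjusted p = 0.00243, limma). The rise in libraries labelled *idd4* was lost in 12 of 20 alternatives (adjusted p = 0.0575 to 0.173, and 0.0116 to 0.173 over all 20), among them the removal of any library of *idd4* under NaCl, *idd4* mock or WT under NaCl, where the difference was 1.36 to 1.70. In WT it held in each of the 20 (adjusted p = 7.12e-10 to 0.0265). These levels rest on 75 and 220 fragments in *idd4* under NaCl, 48 and 73 in *idd4* mock, 228 and 213 in WT under NaCl, and 18 and 31 in WT mock.

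*PRR9*, the earliest of the PRR repressors, was at 71.8 and 51.2 in libraries labelled *idd4* under NaCl against 35.5 and 35.2 in those of mock, and at 89.1 and 79.3 in WT under NaCl against 27.8 and 18.9 in WT mock. Its groups had the same order as those of *CCA1*. In libraries labelled *idd4* the difference of 0.76 ± 0.34 did not pass (adjusted p = 0.235, limma), and in WT *PRR9* rose by 1.83 ± 0.34 (adjusted p = 0.0313, limma). The WT call was lost in 8 of 20 alternatives, among them the removal of either library of WT under NaCl, WT mock or *idd4* mock, where the difference was 1.56 to 2.09 and the adjusted p 0.0518 to 0.186 (limma).

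*LHY*, the partner of *CCA1*, was the least abundant of the 10 genes per kilobase of exon in each library. It was at 35.9 and 27.1 in libraries labelled *idd4* under NaCl against 17.3 and 8.0 in those of mock, and at 53.0 and 31.5 in WT under NaCl against 20.3 and 11.9 in WT mock, which is 10 to 53 fragments per library. The difference was 1.33 in both genotypes with an SE of 0.50, and it did not pass in either (adjusted p = 0.18 in *idd4* and adjusted p = 0.19 in WT, limma). Under NaCl the ranges of the genotypes overlapped for *LHY*, as they did in mock. The log2 ratio of *CCA1* to *LHY*, from values not divided by length and so read only between libraries, was 1.88 and 2.61 in *idd4* under NaCl, 1.36 and 2.72 in *idd4* mock, 2.08 and 2.84 in WT under NaCl, and -0.07 and 1.3 in WT mock. It was lowest in the first WT mock library, while the other WT mock library was close to the first of *idd4* mock.

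*PRR7*, which acts beside *PRR9* and is also a morning repressor, was at 1286 and 1831 in libraries labelled *idd4* under NaCl against 1476 and 1934 in those of mock, and at 1405 and 2191 in WT under NaCl against 1345 and 1743 in WT mock. All groups overlapped, and the 2 libraries of a group were further apart than the groups. The differences were -0.14 ± 0.27 in *idd4* (adjusted p = 0.794, limma) and 0.20 ± 0.27 in WT (adjusted p = 0.705, limma), and the sign in WT turned under other scalings.

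**Figure D1:**
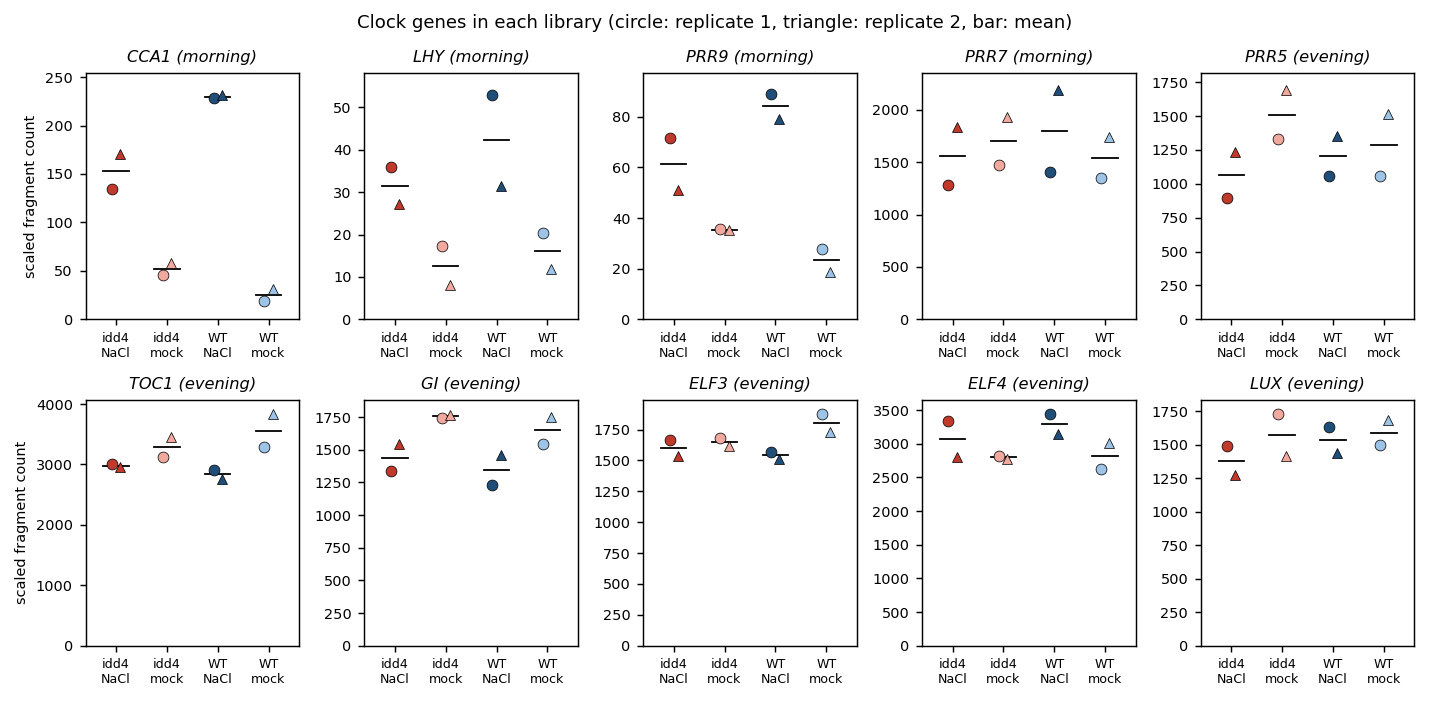
Scaled fragment counts of the 10 clock genes (y axis, from 0, a separate scale per gene) in the 4 groups, with circles for replicate 1, triangles for replicate 2 and bars for the group mean. *CCA1*, *LHY* and *PRR9* are higher in the NaCl libraries than in the mock libraries of the same genotype. *PRR7* and the evening genes differ less between NaCl and mock, relative to their level. *TOC1* and *GI* are lower in all NaCl libraries than in all mock libraries, as is *PRR5* within idd4.

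The evening element, AAAATATCT, is the motif through which CCA1 and LHY are known to bind and repress evening genes, and its windows are shown for that reason. Searched on both strands of the same 500 bases, it was found upstream of *PRR5* (at 2 places), *TOC1* and *LUX*, that is 3 of the 6 evening genes and 0 of the 4 morning genes, against 4.48% of all promoters. In *PRR5* and *TOC1* it lies on the other strand, so that it reads AGATATTTT. Capitals mark the evening element and, in the second *PRR5* window, also the CCA1-binding site AAAAATCT (here AGATTTTT), which 12.6% of promoters hold. The windows are chr5:8358800-8358868 (minus strand) and chr5:8358695-8358774 (minus strand) for *PRR5*, chr5:24674782-24674850 (plus strand) for *TOC1* and chr3:17182959-17183027 (plus strand) for *LUX*.
PRR5, first: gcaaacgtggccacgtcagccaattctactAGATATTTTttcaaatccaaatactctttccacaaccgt
PRR5, second: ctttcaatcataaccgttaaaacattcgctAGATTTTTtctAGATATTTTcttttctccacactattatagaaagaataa
TOC1: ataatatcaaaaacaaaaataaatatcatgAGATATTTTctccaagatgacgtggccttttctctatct
LUX: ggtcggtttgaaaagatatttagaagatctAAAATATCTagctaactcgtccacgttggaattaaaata
The CCA1-binding site, which does not overlap the evening element, was also found upstream of *LHY* and *PRR9*, making 3 of the 10 genes. The LUX-binding site, GATACG or GATTCG, was found upstream of *PRR9*, *TOC1*, *ELF3*, *ELF4* and *LUX*, or 5 of 10, against 22.6% of all promoters. *GI* held none of these motifs in this window.

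None of the 6 evening genes passed the test in either genotype, and 5 of the 6 had values below 0 in both. Of the 21820 genes tested, 6451 were below 0 in *idd4* and 6212 in WT. *TOC1*, the dusk repressor of *CCA1* and *LHY*, was at 3006 and 2955 in libraries labelled *idd4* under NaCl against 3131 and 3460 in those of mock, and at 2917 and 2758 in WT under NaCl against 3282 and 3827 in WT mock. All 4 NaCl libraries lay below all 4 mock libraries. The differences were -0.14 ± 0.17 in *idd4* (adjusted p = 0.654, limma) and -0.32 ± 0.17 in WT (adjusted p = 0.324, limma).

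*GI* was at 1340 and 1541 in libraries labelled *idd4* under NaCl against 1745 and 1769 in those of mock, and at 1234 and 1461 in WT under NaCl against 1548 and 1750 in WT mock. Here too the 4 NaCl libraries were all below the 4 mock libraries, although the highest of them, 1541, was close to the lowest mock library, 1548. The difference was -0.29 ± 0.17 in both genotypes (adjusted p = 0.356 in *idd4* and adjusted p = 0.359 in WT, limma).

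*PRR5*, the late PRR repressor, was at 899 and 1231 in libraries labelled *idd4* under NaCl against 1333 and 1690 in those of mock, and at 1061 and 1356 in WT under NaCl against 1058 and 1517 in WT mock. The *idd4* groups did not overlap, and the WT groups did. The differences were -0.51 ± 0.25 in *idd4* (adjusted p = 0.272, limma) and -0.08 ± 0.25 in WT (adjusted p = 0.877, limma).

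Among the genes of the evening complex, *ELF3*, its scaffold, was at 1666 and 1537 in libraries labelled *idd4* under NaCl against 1684 and 1619 in those of mock, and at 1570 and 1514 in WT under NaCl against 1880 and 1733 in WT mock. *ELF4*, a small partner of ELF3, was at 3344 and 2808 in *idd4* under NaCl against 2825 and 2779 in *idd4* mock, and at 3443 and 3147 in WT under NaCl against 2628 and 3005 in WT mock. *LUX*, its DNA-binding subunit, was at 1489 and 1275 in *idd4* under NaCl against 1728 and 1419 in *idd4* mock, and at 1633 and 1442 in WT under NaCl against 1495 and 1683 in WT mock. In WT, *ELF3* was lower and *ELF4* higher under NaCl with no overlap, although the sign of *ELF4* turned with median of ratios (-0.012), edgeR (-0.0061) and DESeq2 (-0.019), and the groups of *LUX* overlapped in both genotypes. The 3 genes differed by -0.18 to 0.13 in *idd4* and by -0.23 to 0.23 in WT (adjusted p = 0.43 to 0.899, limma). The annotated span of *LUX* shares 1507 bases with AT3G46650 on the other strand, and that of *ELF3* shares 24 bases with AT2G25940 and 183 with the antisense RNA AT2G08135. It is not stated whether counting used strand, so reads of such pairs cannot be told apart.

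**Figure D2:**
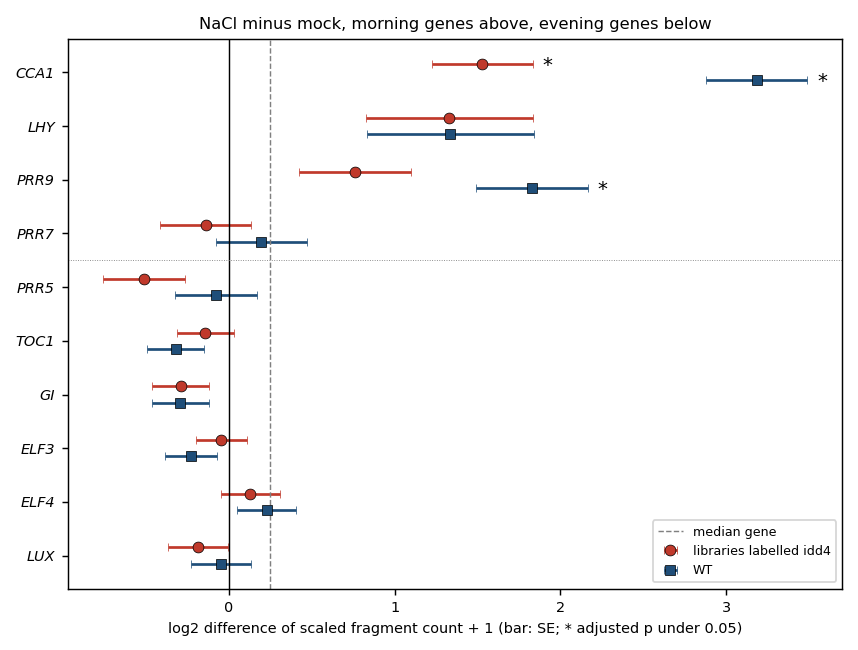
Log2 difference of NaCl minus mock (x axis, scaled fragment count + 1) for each clock gene in libraries labelled idd4 (red circles) and in WT (blue squares), with bars for the SE, asterisks for an adjusted p under 0.05 and a dashed line for the median gene at 0.25. *CCA1* stands at 1.53 and 3.18 and *PRR9* at 0.76 and 1.83, and the evening genes lie between -0.51 and 0.23.

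In total, 1 of the 10 genes rose in libraries labelled *idd4*, where 2.96% of the 21820 genes tested passed (2.08% higher and 0.88% lower), and 2 rose in WT, where 2.4% passed (1.85% higher and 0.55% lower). Averaged over both genotypes, which sets 4 NaCl libraries against 4 mock libraries, *CCA1* rose by 2.36 ± 0.22 (adjusted p = 0.00056), *LHY* by 1.33 ± 0.36 (adjusted p = 0.0363) and *PRR9* by 1.29 ± 0.24 (adjusted p = 0.00941, limma), and 15.9% of all genes passed (12.1% higher and 3.8% lower). The call of *LHY* was lost in 12 of 19 alternatives, among them removal of *idd4* NaCl 1, *idd4* mock 2 or any WT library, where the difference was 1.08 to 1.52 and the adjusted p 0.0509 to 0.121 (limma). *CCA1* and *PRR9* passed in all 19. *GI* (-0.29 ± 0.12, adjusted p = 0.126, limma) and *TOC1* (-0.23 ± 0.12, adjusted p = 0.207, limma) did not pass. Alternatives that bring the median gene close to 0 gave *GI* -0.53 with median of ratios (adjusted p = 0.0441, limma), -0.52 with TMM (adjusted p = 0.048, limma), -0.42 with quantile normalization (adjusted p = 0.0632, limma), -0.52 with edgeR (adjusted p = 0.055) and -0.53 with DESeq2 (adjusted p = 0.0251). *TOC1* passed with DESeq2 (-0.48, adjusted p = 0.0302) and not with the other 4 of these (-0.48 to -0.30, adjusted p = 0.0673 to 0.153, limma and edgeR). *LHY* passed with none of these alternatives (1.045 to 1.125, adjusted p = 0.0572 to 0.102, limma, edgeR and DESeq2). Its call was also lost without a variance trend (adjusted p = 0.0534, limma).

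With both genotypes combined, the 4 NaCl and the 4 mock libraries did not overlap for 5 of the 10 genes, against 27.2% of all genes. *CCA1*, *LHY* and *PRR9* were on the high side, where 21.7% of all genes were found, and *TOC1* and *GI* on the low side, where 5.44% were found. The median difference of the 4 morning genes was 1.05 in *idd4* and 1.58 in WT, and that of the 6 evening genes -0.16 in *idd4* and -0.15 in WT, beside a median of 0.25 over all genes in each genotype.

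To compare morning with evening genes within a library, the mean log2 level of the evening genes was subtracted from that of the morning genes, which does not depend on how libraries are scaled apart from the pseudocount. The levels were not divided by length, so the score is read only between libraries. The result was -3.58 and -3.60 in libraries labelled *idd4* under NaCl against -4.58 and -4.69 in those of mock, and -3.18 and -3.26 in WT under NaCl against -4.85 and -5.10 in WT mock. The score was thus higher in every NaCl library than in any mock library. NaCl minus mock was 1.05 in *idd4* and 1.76 in WT, against a pooled SD of 0.10 between the libraries of a group, and no test was made of this score. Opposite shifts between the 2 libraries of a group partly cancel in the score. Second minus first (log2) was 0.02 to 0.65 for *CCA1* and -1.02 to -0.39 for *LHY*. The SD of 0.10 thus does not give the spread of single genes. The 4 groups did not overlap, and the genotypes changed places, the *idd4* libraries being 0.37 below WT under NaCl and 0.34 above WT in mock. *CCA1*, *PRR9* and *PRR7* changed sides in this way, with overlap for *PRR7*, and *LHY* was below WT in both treatments (-0.38 and -0.37).

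The ratio of *CCA1* to *TOC1*, the classic pair of mutual repressors, was followed in the same way. On the log2 scale it was -4.47 and -4.11 in libraries labelled *idd4* under NaCl against -6.06 and -5.87 in those of mock, and -3.67 and -3.57 in WT under NaCl against -7.34 and -6.91 in WT mock. NaCl minus mock was 1.67 in *idd4* and 3.51 in WT, with a pooled SD of 0.21. The ratio of *LHY* to *TOC1* was -6.35 and -6.71 in *idd4* under NaCl, -7.42 and -8.59 in *idd4* mock, -5.75 and -6.41 in WT under NaCl, and -7.27 and -8.21 in WT mock, so that the genotypes overlapped there in each treatment.

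**Figure D3:**
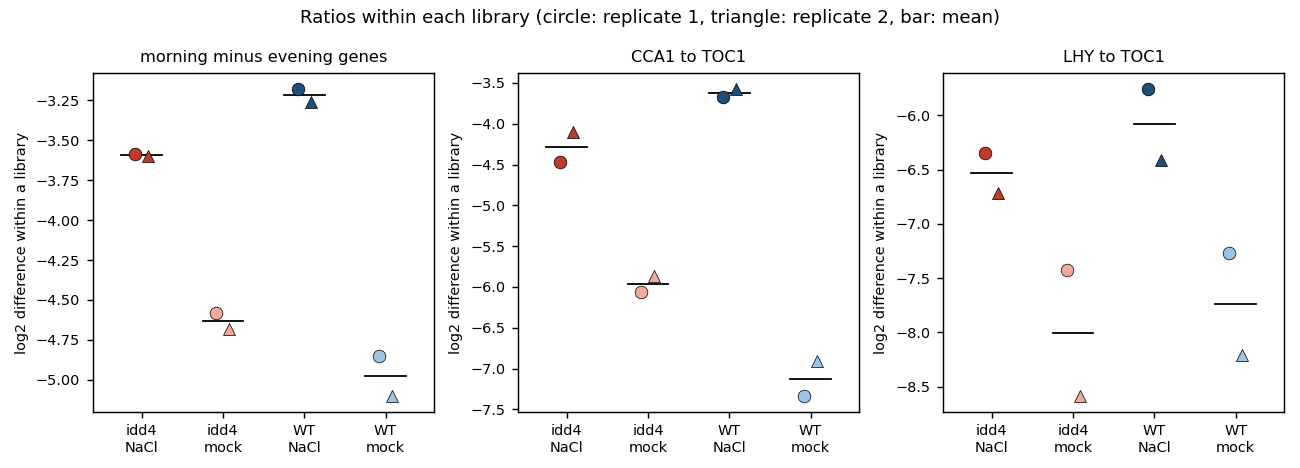
Log2 differences within each library (y axis, not starting at 0): mean of the 4 morning genes minus mean of the 6 evening genes, *CCA1* minus *TOC1*, and *LHY* minus *TOC1*, with circles for replicate 1, triangles for replicate 2 and bars for the mean. In the first and second panels the NaCl groups lie above the mock groups and the idd4 groups lie between the WT groups, and in the third the genotypes overlap.

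Levels of different genes were set against each other per kilobase of annotated exon. On that scale *ELF4* was the most abundant, at 4536 to 5562 under NaCl and 4246 to 4854 in mock. *TOC1* followed, at 982 to 1071 under NaCl and 1115 to 1363 in mock, and then *PRR5*, *ELF3* and *PRR7*, whose ranges overlapped within 398 and 1007 over all libraries. *TOC1* was above *PRR5* in each library, although the ranges of both over all libraries touched. *LUX* and *GI* also overlapped, within 287 and 441. The annotated exons of *LUX*, joined over its transcripts, cover 3916 of the 3918 bases of its span, of which 1507 are shared with AT3G46650. Its level per kilobase, and so its place in this order, depends on that annotation. All of these were above *CCA1* (49.4 to 85.0 under NaCl and 7.08 to 21.4 in mock), *PRR9* (23.9 to 41.6 under NaCl and 8.83 to 16.6 in mock) and *LHY* (7.94 to 15.5 under NaCl and 2.34 to 5.94 in mock) in all 8 libraries. *CCA1* was above *PRR9* in every NaCl library, while in mock the ranges of both genes overlapped.

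The second library of a group was higher than the first in all 4 groups for *CCA1*, *PRR7*, *PRR5* and *GI*, a pattern shown by 6.46% of all genes, and lower in all 4 for *LHY*, *PRR9* and *ELF3*, shown by 18.3%. *CCA1* and *LHY* were thus on opposite sides, by 0.02 to 0.65 for *CCA1*, and by -1.02 to -0.39 for *LHY* (log2, second minus first). Over the 8 libraries, which share their groups, *CCA1* correlated with *PRR9* at r = 0.917 and with *LHY* at r = 0.703, and with *ELF3* at r = -0.903 and *TOC1* at r = -0.799. These values are given as a description.

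Between genotypes, the libraries labelled *idd4* had less *CCA1* and *PRR9* than those of WT under NaCl and more in mock, with no overlap in either treatment. For *CCA1* the difference was -0.60 ± 0.31 under NaCl and 1.06 ± 0.31 in mock, and for *PRR9* -0.46 ± 0.34 under NaCl and 0.60 ± 0.34 in mock. For *LHY* it was -0.38 ± 0.50 under NaCl and -0.37 ± 0.50 in mock, with overlap in both. None of the 10 genes passed in either treatment (adjusted p = 1, limma), nor did any other gene. Non-overlapping groups were also found for *TOC1* under NaCl (higher in *idd4*) and *ELF3* in mock (lower in *idd4*), making 3 of 10 genes in each treatment. Among all genes, 27.4% did not overlap under NaCl (9.32% higher and 18.1% lower) and 24.9% in mock (9.05% higher and 15.9% lower).

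**Figure D4:**
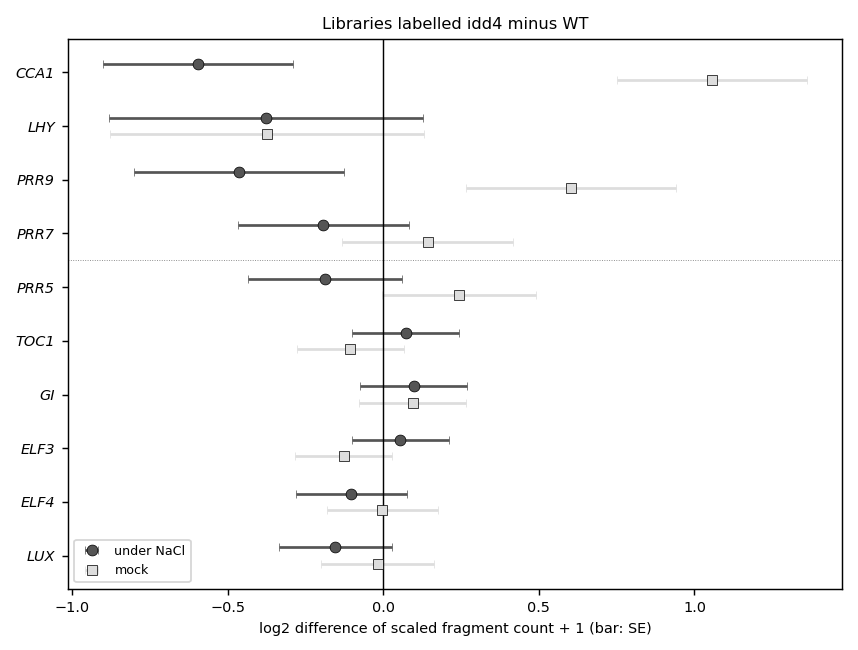
Log2 difference of libraries labelled idd4 minus WT (x axis, scaled fragment count + 1) for each clock gene under NaCl (dark circles) and in mock (light squares), with bars for the SE. *CCA1* lies at -0.60 under NaCl and 1.06 in mock and *PRR9* at -0.46 and 0.60, and the bars of most other genes reach 0.

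The interaction, the effect of NaCl in *idd4* minus that in WT, was -1.65 ± 0.43 for *CCA1* and -1.07 ± 0.48 for *PRR9*. *CCA1* had the fifth smallest p of the 21820 genes (unadjusted p = 0.00394, limma) and did not pass after adjustment (adjusted p = 1). The unadjusted p of *PRR9* was 0.0522 (limma). For *LHY* the interaction was -0.01 ± 0.71, and over the other 7 genes it ran from -0.43 to 0.18. Over all genes, 0 passed for the interaction with limma, edgeR or DESeq2, and 203 (0.93%) had an unadjusted p under 0.05 with limma. Under NaCl 0 passed between genotypes with any of the 3 tools, and 532 (2.44%) had an unadjusted p under 0.05 with limma. In mock 0 passed with limma or edgeR, 3 with DESeq2, and 274 (1.26%) had an unadjusted p under 0.05 with limma. These shares are below what a threshold of 0.05 gives where nothing differs, so the rank of *CCA1* is only a description. With replicate number added to the limma fit, 1 gene passed in mock (lower in *idd4*), 0 under NaCl and 0 for the interaction. Genes with an unadjusted p under 0.05 then numbered 471 in mock, 901 under NaCl and 390 for the interaction.

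The other genes of the clock were taken from 7 lists of 46 genes in all, each of which was tested. Of these, 1 rose and 1 fell in libraries labelled *idd4*, 3 rose and 0 fell in WT, and 10 rose and 2 fell over both genotypes. Of all genes, 2.96% passed in *idd4*, 2.4% in WT and 15.9% over both. Their median difference was 0.28 in *idd4* and 0.43 in WT, beside 0.25 for all genes. At unadjusted p under 0.05 there were 12 of 46 in *idd4*, against 21.3% of all genes, and 16 in WT, against 20.4%.

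The gene of these lists with the smallest p was *COL1*, a CONSTANS-like B-box gene with a dawn rhythm. It was at 353 and 365 in libraries labelled *idd4* under NaCl against 54.7 and 43.2 in those of mock, and at 337 and 307 in WT under NaCl against 49.2 and 46.7 in WT mock. The NaCl levels of the genotypes were near each other, and so were the mock levels. *COL1* rose by 2.86 ± 0.22 in *idd4* (adjusted p = 0.00152, limma) and by 2.72 ± 0.22 in WT (adjusted p = 0.00108, limma), and passed in every alternative. Among the other CDF and CONSTANS-like genes, *CDF1*, a morning repressor of *CONSTANS*, was at 163 and 189 in *idd4* under NaCl against 142 and 93.6 in *idd4* mock, and at 238 and 281 in WT under NaCl against 113 and 103 in WT mock. It rose in WT (1.25 ± 0.25, adjusted p = 0.0427, limma) and not in *idd4* (0.60 ± 0.25, adjusted p = 0.215, limma), and the WT call was lost in 10 of 20 alternatives. These were the removal of any WT library (adjusted p = 0.113 to 0.219, limma), the 3 other scalings, no filter, no variance trend and edgeR (adjusted p = 0.0522 to 0.104). *COL2* passed only over both genotypes (0.87 ± 0.19, adjusted p = 0.0185, limma), and not without *idd4* mock 2, WT NaCl 1 or either WT mock library (0.80 to 0.89, adjusted p = 0.0515 to 0.0749), nor with quantile normalization (0.59, adjusted p = 0.0683) or DESeq2 (0.65, adjusted p = 0.125).

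Of the 8 REVEILLE genes, which encode MYB-like factors related to CCA1 and LHY, 3 rose and 1 fell over both genotypes, where 15.9% of all genes passed. In a single genotype 0 passed, and an unadjusted p under 0.05 (limma) was found for 4 in *idd4*, against 21.3% of all genes, and 5 in WT, against 20.4%. *RVE8*, an activator of evening genes, was at 43.1 and 22.5 in libraries labelled *idd4* under NaCl against 8.63 and 13.6 in those of mock, and at 41.0 and 49.9 in WT under NaCl against 19.3 and 5.97 in WT mock. *RVE1*, which links the clock to auxin, was at 89.7 and 85.3 in *idd4* under NaCl against 33.6 and 39.2 in *idd4* mock, and at 98.1 and 76.0 in WT under NaCl against 34.2 and 35.8 in WT mock. In both genes all NaCl libraries were above all mock libraries. Over both genotypes *RVE8* rose by 1.70 ± 0.41 (adjusted p = 0.0257), *RVE1* by 1.26 ± 0.20 (adjusted p = 0.00588) and AT4G01280 by 1.21 ± 0.28 (adjusted p = 0.0219), and *RVE7* fell by 0.97 ± 0.27 (adjusted p = 0.0408, limma). Only *RVE1* of these 4 passed in all 19 alternatives. Without a single library (5 of 8 for AT4G01280, 6 of 8 for *RVE8* and for *RVE7*) the others reached an adjusted p of up to 0.119 (limma).

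All 4 LNK genes, whose proteins act with RVE8 in transcription, had values above 0 in both genotypes. So had most genes, 15363 of 21820 in *idd4* and 15601 in WT. The median of the LNK genes was 0.26 in *idd4* and 1.08 in WT, beside 0.25 for all genes in each. *LNK3* was at 43.1 and 31.8 in libraries labelled *idd4* under NaCl against 10.6 and 24.0 in those of mock, and at 55.0 and 53.2 in WT under NaCl against 8.56 and 16.9 in WT mock. It rose over both genotypes by 1.62 ± 0.35 (adjusted p = 0.0174, limma), and not without the first library of any of the 4 groups (1.34 to 1.61, adjusted p = 0.0504 to 0.0588). *LNK1* rose over both by 0.40 ± 0.12 (adjusted p = 0.0474, limma) and was lost without any single library (0.36 to 0.45, adjusted p = 0.0785 to 0.153), and with the median gene brought close to 0 it was at 0.16 (adjusted p = 0.468, limma).

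Among 8 partners of the evening genes, *EFL3*, a relative of *ELF4*, was at 44.8 and 25.6 in libraries labelled *idd4* under NaCl against 16.3 and 13.6 in those of mock, and at 47.0 and 48.9 in WT under NaCl against 8.56 and 10.9 in WT mock. It rose in WT (2.2 ± 0.42, adjusted p = 0.0337, limma) and its value in *idd4* was 1.14 ± 0.42 (adjusted p = 0.169, limma). *CHE*, a TCP factor that binds the *CCA1* promoter and represses it, was at 393 and 590 in *idd4* under NaCl against 989 and 1263 in *idd4* mock, and at 695 and 648 in WT under NaCl against 855 and 912 in WT mock. *CHE* fell in *idd4* (-1.21 ± 0.22, adjusted p = 0.028, limma), and its value in WT was -0.39 ± 0.22 (adjusted p = 0.341, limma). The call of *EFL3* was lost in 8 of 20 alternatives, among them without any WT or *idd4* mock library (2.04 to 2.36, adjusted p = 0.0544 to 0.179), and that of *CHE* in 7 of 20, among them without *idd4* NaCl 1 or any mock library (-1.39 to -0.92, adjusted p = 0.0602 to 0.177, limma).

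Of the remaining lists, *CAT2*, a catalase gene with a morning rhythm, was the 1 of 4 rhythmic outputs to rise over both genotypes (0.95 ± 0.17, adjusted p = 0.00897, limma). It did not pass in 3 of 19 alternatives, among them median-of-ratios scaling (0.71, adjusted p = 0.056, limma), and none of the 3 was the removal of a library. It was at 4677 and 7164 in libraries labelled *idd4* under NaCl against 3448 and 3247 in those of mock, and at 5798 and 5992 in WT under NaCl against 2362 and 3185 in WT mock. None of the 3 LOV F-box genes passed, *FKF1*, which acts with GI in the afternoon, being at -0.40 ± 0.19 in *idd4* (adjusted p = 0.27) and -0.33 ± 0.19 in WT (adjusted p = 0.357, limma). The 10 clock modifiers had a median of 0.34 in *idd4* and 0.32 in WT, and 0 passed in *idd4*, in WT or over both genotypes, with 1, 0 and 4 of them at unadjusted p under 0.05 (limma). Over both genotypes 34.6% of all genes were under that value.

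**Figure D5:**
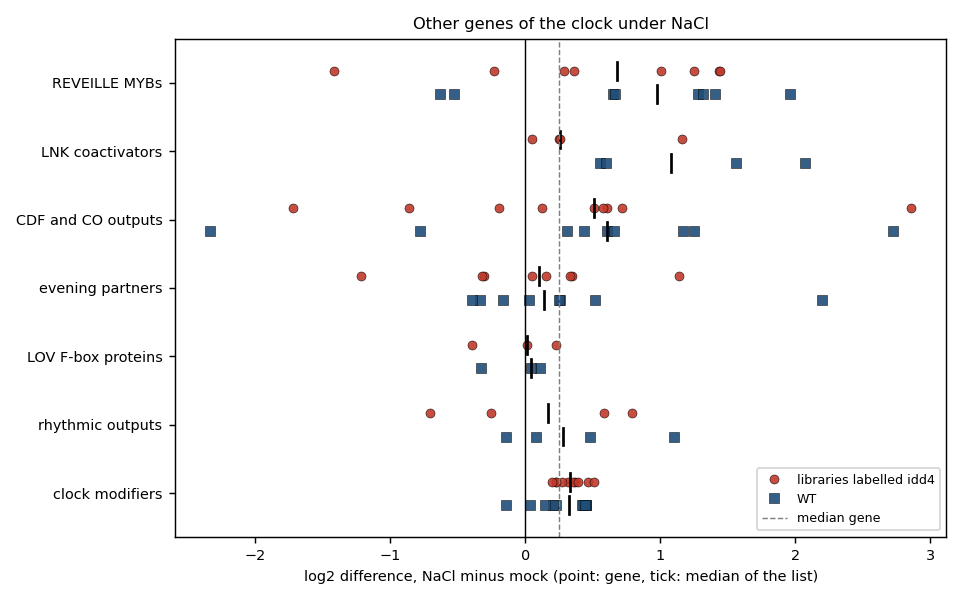
Log2 difference of NaCl minus mock (x axis) for 46 other genes of the clock in 7 lists (rows), with red circles for libraries labelled idd4, blue squares for WT, black ticks for the median of a list and a dashed line for the median gene at 0.25. The rightmost points are *COL1*, at 2.86 in idd4 and 2.72 in WT, and the clock modifiers stay close to the median gene.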

How the data were processed

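RNA sequencing of 8 libraries (2 in each of 4 groups) was used, with genotype, treatment and replicate number taken from the labels. According to the submitters' processing notes and the methods, paired-end reads of 101 bp were checked with FastQC, trimmed with Trimmomatic 0.32 to at least 36 bp and aligned to TAIR10 with TopHat 2.1.1 allowing 2 mismatches, and Cufflinks 2.2.1 was used. The deposited values are a signal per gene made by the authors, in effect a fragment count multiplied by 1 factor per library and not divided by length, although the table is called FPKM. Depending on the library, 99.88% to 99.99% of values were whole multiples of 1 step (tolerance 0.05), which gave the fragments.

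From these values, log2(value + 1) of the 21820 genes whose mean over the libraries reached 1 was fitted with limma 3.58.1 (R 4.3.3), with 1 mean per group over all 8 libraries and a variance trend. Contrasts were NaCl minus mock in each genotype and over both, *idd4* minus WT in each treatment, and their interaction. Tests were two-sided, with Benjamini-Hochberg adjustment over all genes and a threshold of 0.05, and "rose" or "fell" is used only of what passed. edgeR 4.0.16 and DESeq2 1.42.0 on recovered fragments were alternatives, beside other pseudocounts, filters, scalings, fits and leaving out each library. The fits were also run on simulated counts with the same spread for all genes and no shift shared by replicates. Such counts are simpler than these data and do not show how the fits behave on them. Motifs were searched on both strands of the 500 bases before each gene start in TAIR10.1, whose windows are credited to RefSeq. All 10 genes are named with every library, and of each other list up to 4 genes with the smallest p. Members, lists and tests were chosen with earlier results of these data known.

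Depth was 5882615 to 13557480 fragments, so the same level rests on fewer fragments in *idd4* NaCl 1 than in the other libraries, and replicates differed by more than counting noise.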

Additional observations from a re-analysis of the deposited data

Results flagged for a closer look

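The differences between genotypes went in opposite directions under NaCl and in mock for 2 of the 10 clock genes, with no overlap between the libraries in either treatment. How many of all genes changed sides in this way was not counted, so 2 of 10 cannot be set against a share. In a single treatment, 27.4% of all genes did not overlap under NaCl and 24.9% in mock. For *CCA1* the libraries labelled *idd4* were at 135 and 171 against 228 and 231 in WT under NaCl, and at 46.1 and 58.4 against 19.3 and 30.8 in mock, and the difference of the differences was -1.65 (adjusted p = 1, limma interaction). For *PRR9* they were at 71.8 and 51.2 against 89.1 and 79.3 in WT under NaCl, and at 35.5 and 35.2 against 27.8 and 18.9 in mock, with a difference of -1.07 (adjusted p = 1, limma interaction). Neither passed over the 21820 genes, nor in any of 19 alternatives (adjusted p = 0.999 to 1), in which the value was -1.98 to -1.33 for *CCA1* and -1.33 to -0.80 for *PRR9*.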

How the results depend on the processing

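In libraries labelled *idd4*, the clock genes that rose numbered 0 in place of 1 with median-of-ratios, TMM or quantile scaling, without a variance trend, with only the 4 libraries compared and with edgeR, and 0 to 1 when a library was left out. In WT they numbered 1 in place of 2 without a variance trend and with only the 4 libraries compared, and 1 to 2 when a library was left out. Morning minus evening genes, NaCl minus mock, was 1.63 in WT and 1.29 over both genotypes with a pseudocount of 5 (1.76 and 1.40 otherwise). With *PRR7* and *PRR5* left out it was 1.31 in *idd4*, 2.25 in WT and 1.78 over both, and for genotype -0.47 under NaCl, 0.46 in mock and -0.93 for the interaction. Without a library it was 1.63 to 1.89 in WT, 0.22 to 0.47 for genotype in mock and -0.84 to -0.59 for the interaction. The log2 ratio of *CCA1* to *TOC1* was then 3.29 to 3.72 in WT, 0.95 to 1.38 for genotype in mock and -2.05 to -1.62 for the interaction.

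Differences near 0 that had not passed changed sign under other scalings, and the cause was not tested. For NaCl in *idd4*, *ELF4* was -0.11 with median of ratios, -0.11 with TMM, -0.0074 with quantile, -0.12 with edgeR and -0.11 with DESeq2 (0.13 otherwise). For NaCl in WT, *PRR7* was -0.043 with median of ratios, -0.027 with TMM, -0.0098 with edgeR and -0.024 with DESeq2 (0.20 otherwise) and *ELF4* was -0.012 with median of ratios, -0.0061 with edgeR and -0.019 with DESeq2 (0.23 otherwise). For NaCl over both genotypes, *PRR7* was -0.21 with median of ratios, -0.20 with TMM, -0.095 with quantile, -0.19 with edgeR and -0.19 with DESeq2 (0.029 otherwise) and *ELF4* was -0.062 with median of ratios, -0.054 with TMM, -0.061 with edgeR and -0.066 with DESeq2 (0.18 otherwise). For genotype in mock, *ELF4* was 0.050 with median of ratios, 0.051 with TMM, 0.040 with quantile, 0.046 with edgeR and 0.043 with DESeq2 (-0.0040 otherwise) and *LUX* was 0.036 with median of ratios, 0.037 with TMM, 0.0064 with quantile, 0.033 with edgeR and 0.031 with DESeq2 (-0.018 otherwise). For the interaction, *LHY* was 0.0057 with a pseudocount of 0.5 and 0.037 with quantile (-0.0051 otherwise) and *GI* was -0.013 with TMM, -0.053 with quantile and -0.0037 with edgeR (0.0038 otherwise).

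Values that had not passed also changed sign when a library was left out. For NaCl in *idd4* they ran over -0.39 to 0.12 for *PRR7* and -0.10 to 0.013 for *ELF3*. For NaCl in WT they ran over -0.34 to 0.18 for *PRR5*, -0.12 to 0.52 for *PRR7* and -0.14 to 0.042 for *LUX*. For NaCl over both genotypes they ran over -0.13 to 0.19 for *PRR7*. For genotype under NaCl they ran over -0.51 to 0.13 for *PRR7*, -0.42 to 0.038 for *PRR5*, -0.0046 to 0.11 for *ELF3*, -0.024 to 0.22 for *GI* and -0.23 to 0.023 for *ELF4*. For genotype in mock they ran over -0.88 to 0.14 for *LHY*, -0.053 to 0.34 for *PRR7*, -0.10 to 0.093 for *ELF4*, -0.16 to 0.12 for *LUX*, -0.016 to 0.50 for *PRR5* and -0.22 to 0.0043 for *TOC1*. For the interaction they ran over -0.52 to 0.51 for *LHY*, -0.12 to 0.13 for *GI*, -0.23 to 0.027 for *ELF4* and -0.28 to 0.0051 for *LUX*.

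Over all genes, the number passing for NaCl moved by over 1.5 times under some settings. It was 646 in *idd4*, 524 in WT and 3473 over both genotypes. Without a variance trend it was 104 in *idd4*, 84 in WT and 1958 over both, and 111 in *idd4* with only the 4 libraries compared. With DESeq2 it was 1170 in *idd4* and 1094 in WT. Leaving out a library gave 71 to 804 in *idd4*, 55 to 698 in WT and 1546 to 3677 over both. Scaling moved the split of higher to lower genes, which over both genotypes was 2644 to 829, and 1160 to 1502 with median of ratios, 1200 to 1458 with TMM, 1185 to 1396 with quantile, 1178 to 1434 with edgeR and 1218 to 1575 with DESeq2. No source says that a replicate number marks a shared batch, and deviations of same-numbered libraries correlated at r = 0.041 to 0.397. With the replicate block the clock genes called stayed at 1 in *idd4*, 2 in WT and 3 over both, the same genes, and over all genes 1728 passed in *idd4*, 1564 in WT and 5551 over both. The 5 genes *RVE1*, AT4G01280, *LNK3*, *COL2* and *CAT2* then also passed in WT, and *RVE1* and *RVE7* in *idd4*. Levels of *LHY* in mock rest on 10 to 19 fragments and those of *CCA1* in WT mock on 18 and 31, so counting error is largest there.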

Other observations

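The genes whose levels followed *CCA1* most closely over the 8 libraries, among those with a mean of at least 10, were *ZFN2* (r = 0.993), *JAC1* (r = 0.992), AT5G40530 (r = 0.985), AT5G61290 (r = 0.983) and *GDU1* (r = 0.982). *JAC1*, which is required for chloroplast accumulation in light, was at 169 and 186 in libraries labelled *idd4* under NaCl against 94.0 and 118 in those of mock, and at 243 and 208 in WT under NaCl against 58.9 and 83.6 in WT mock. Its groups thus had the order of those of *CCA1*. For *TOC1* the closest were *RPP13* (r = 0.966), AT4G15160 (r = 0.965), *PME3* (r = 0.956), AT5G01740 (r = 0.954) and *RAV2* (r = 0.954). *RAV2* was at 800 and 575 in *idd4* under NaCl against 1206 and 2250 in *idd4* mock, and at 582 and 384 in WT under NaCl against 1222 and 2338 in WT mock. The genes were picked for their correlation out of the whole table, and the libraries share their groups.

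*CO*, the flowering regulator downstream of the clock, chosen after its values were seen, was at 19.7 and 17.1 in libraries labelled *idd4* under NaCl against 38.4 and 30.4 in those of mock, and at 27.0 and 26.1 in WT under NaCl against 59.9 and 35.8 in WT mock. All NaCl libraries lay below all mock libraries, and the difference over both genotypes of -0.82 ± 0.27 did not pass (adjusted p = 0.0688, limma).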
